A study of Mus musculus with 28 samples.

Results

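Immune checkpoint genes encode the inhibitory receptors of T cells and natural killer (NK) cells and the ligands that engage them. A fixed set of 10 such genes was picked by symbol from the 18182 genes of the expression table. No threshold on their values was set, but earlier results of these data were known. The ligands were Cd274, Pdcd1lg2, Cd276, Vsir and Lgals9, and the receptors were Ctla4, Lag3, Havcr2, Tigit and Cd96. RNA sequencing was done on liver tissue of mice labelled c-Myc/Alb-cre transgenic, a model in which Cre recombinase is driven by the albumin promoter and so is directed to hepatocytes. All 28 libraries carry this genotype, and normal liver was not analysed here. There were 14 libraries labelled HCC tumour (hepatocellular carcinoma) and 14 labelled peritumour tissue, in the groups Tu_F (11), Pe_F (11), Tu_M (3) and Pe_M (3), where the labels leave the letters F and M unexpanded and give no age. A code in the titles joins each tumour library to 1 peritumour library, which gave 14 pairs, taken here as animals. The codes have 2 styles, treated as a possible batch: the first in 6 pairs (F replicates 1 to 3 and all M), the second in 8 pairs (F replicates 4 to 11).

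Checkpoint receptors appear on T and NK cells after activation and dampen their response when a ligand on a tumour cell, a macrophage or another neighbour binds them. PD-L1, encoded by Cd274, and PD-L2, encoded by Pdcd1lg2, bind PD-1. Interferon gamma, released by activated T and NK cells, raises Cd274 through JAK kinases. The liver holds many resident macrophages (Kupffer cells) and sinusoidal endothelial cells, and both carry ligands of inhibitory receptors, while hepatocytes secrete FGL1, a ligand of LAG-3.

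Library totals ran from 14777567 to 17576921 estimated counts, so that 1 count was worth 0.0569 to 0.0677 counts per 1000000 counts of the library (CPM), and 15127 to 16428 genes had a count. The hepatocyte markers (8 genes, among them Alb, Ttr and Hnf4a) summed to 20900 to 47900 CPM in tumour and 17900 to 58900 CPM in peritumour tissue, and none of them was at 0 in every library of a tissue. T cell markers (10 genes, among them Cd3e and Cd8a) summed to only 6.46 to 50.9 CPM in tumour and 9.39 to 28.4 CPM in peritumour tissue. Mpo, a gene of myeloid precursors, measured 15.3 to 40.9 CPM in both tissues of F replicates 2, 5 and 6, and tumour F4 also reached 17.9 CPM. Tumour F2 stood apart in bile duct markers too, with a sum of 1942 CPM against at most 307 CPM in any other library. Values without F pairs 2, 5 and 6 are given beside the results that they move most.

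The levels of the 10 genes differed widely: Lgals9 and Cd276 were well expressed, and the receptors were low. Levels of different genes are compared here in transcripts per 1000000 (TPM), which takes length into account. Lgals9, which encodes galectin-9, a ligand of TIM-3, had a median of 799 TPM over the 28 libraries (range 545 to 1265). Cd276, which encodes B7-H3, followed with 36.5 TPM (26.1 to 55.1). These ranges overlapped neither each other nor those of the other members. Vsir, which encodes VISTA, a B7 family protein that acts as ligand and as receptor, had a median of 5.38 TPM (2.71 to 12.6), and Cd274 had 3.70 TPM (1.77 to 19.8). Vsir was above Cd274 in 19 of 28 libraries, and their ranges overlapped. Next came Havcr2 (TIM-3) at 1.35 TPM and Lag3 at 0.69 TPM, and Havcr2 was the higher of the pair in 26 of 28 libraries. Cd96 (0.355 TPM) and Tigit (0.335 TPM), receptors that share the ligand CD155, were not separated: Cd96 was the higher in 15 of 28 libraries. Pdcd1lg2 (0.095 TPM) and Ctla4 (0.08 TPM) came last, with Pdcd1lg2 the higher in 14 of 28 libraries.

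**Figure D1:**
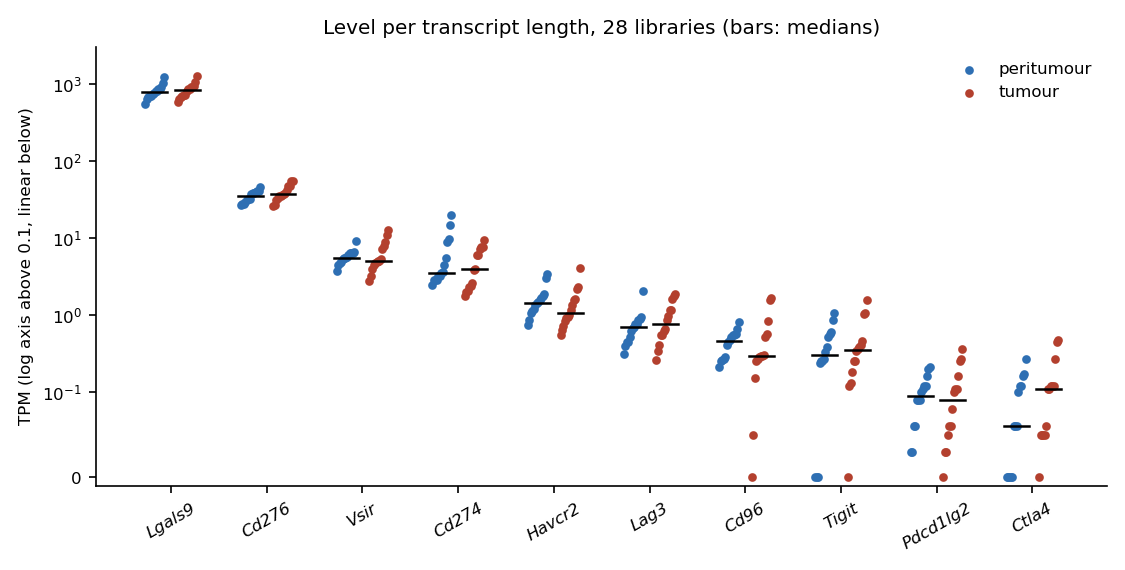
Level of each of the 10 genes in TPM in 14 peritumour (blue) and 14 tumour (red) libraries, with black bars at the medians; the axis is logarithmic above 0.1 and linear below, so that values of 0 can be shown. Lgals9 and Cd276 stand above the other members in every library, and Cd96, Tigit, Pdcd1lg2 and Ctla4 reach 0 in some libraries.

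By a rule of a median under 1 CPM, or of failing the filter on low counts, 5 of the 10 members were near the detection limit: Pdcd1lg2, Ctla4, Tigit, Cd96 and Lag3. Ctla4, the receptor that competes with CD28 for CD80 and CD86, had 56 counts in all 28 libraries together. It was at 0 in 6 libraries and at 3 counts or fewer in 24. Tigit had 99 counts in all, with 4 libraries at 0 and 18 at 3 counts or fewer. Pdcd1lg2 had 105 counts in all, with 1 library at 0 and 16 at 3 counts or fewer. A count of 0 allows a level of up to about 3 counts at one-sided 95% confidence, which is 0.171 to 0.203 CPM depending on the library. This limit covers counting error only. These 3 genes did not pass the filter and entered the tests only when no filter was used. Cd96 had 266 counts (1 library at 0, 3 at 3 counts or fewer) and Lag3 had 449 counts, with every library above 3. At such counts, a change of moderate size in Ctla4, Tigit or Pdcd1lg2 was not detectable at this depth. Pdcd1, which encodes PD-1 and is a partner rather than a member, was as low, with medians of 0.121 CPM in tumour against 0.0672 CPM in peritumour tissue.

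The members lie on 7 chromosomes of GRCm38. Cd274 (gene ID 60533) lies on chromosome 19 at 29366576 to 29388095 and Pdcd1lg2 (58205) next to it at 29410919 to 29484254, both on the plus strand. The median of Cd274 was 3.70 TPM and that of its neighbour Pdcd1lg2 0.095 TPM. The deposited span of Cd274 overlaps Plgrkt as RefSeq places it, and Vsir (chromosome 10, 60346851 to 60430294) lies within the span of Cdh23. Strand use in counting was not stated in the labels or headers. Overlap of exons was not examined, so whether reads of such overlaps entered the counts is not known. The windows of 250 bases before the start that RefSeq's promoter table (GRCm38.p6) uses for Cd274, a gene known to be induced by interferon gamma, and for Lgals9, the most abundant member, are shown. For Cd274 that start lies inside the deposited span, so its window is not the one before the deposited start. They were read for 3 motifs on both strands: the core of the interferon-stimulated response element (GAAA, any 2 bases, GAAA), TTCNNNGAA, the gamma-activated site, and CACGTG, the E-box bound by MYC. Capitals mark the match.
Cd274, chr19:29367188-29367437, plus strand: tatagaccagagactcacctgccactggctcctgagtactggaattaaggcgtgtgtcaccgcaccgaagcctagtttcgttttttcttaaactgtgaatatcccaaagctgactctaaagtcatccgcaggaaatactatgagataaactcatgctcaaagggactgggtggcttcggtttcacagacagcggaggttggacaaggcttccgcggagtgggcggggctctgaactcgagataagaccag
Lgals9, chr11:78984925-78985174, minus strand: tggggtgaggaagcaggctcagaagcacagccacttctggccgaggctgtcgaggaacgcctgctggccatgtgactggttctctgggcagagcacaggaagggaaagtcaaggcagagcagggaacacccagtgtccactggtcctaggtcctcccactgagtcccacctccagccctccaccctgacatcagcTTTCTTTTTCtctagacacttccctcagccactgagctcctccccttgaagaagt
The Lgals9 window holds the GAAA pair on the opposite strand, from -55 to -46 counted from the start in that table. This motif is in 2.98% of 32851 mouse promoter windows of the same length. This Cd274 window holds none of the 3 motifs, and the bases before the deposited start were not read. Of the 9 members with a window, Cd96 holds TTCNNNGAA from -79 to -71 (7.02% of all windows), and none holds CACGTG (6.02%).

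The main question was whether tumour and peritumour tissue differ in these genes. No member passed the test: of the 7 that passed the filter on low counts, 0 had an adjusted p under 0.05 (edgeR, tumour against peritumour, code style and letter as covariates), against a background of 1.05% of the 14117 genes tested. With the pair as a block, used beside it because the libraries of a pair deviated together, 0 of 7 members passed either, against 11.5% of all genes. The members' median log2 fold change was 0.02 without the block and -0.01 with it, beside 0.01 and -0.02 over all genes tested. At an unadjusted p under 0.05 there were 0 members without the block and 1, Cd274, with it, and DESeq2 called 0 members in either design. The tissues overlapped for every member. In bulk tissue, fewer cells of a type and less RNA per cell cannot be told apart, and this holds for all values that follow.

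Among the ligands, Cd274 had the smallest p of all members with the block. It measured 4.22, 8.37 and 20.1 CPM (lowest, median and highest of 14) in tumour and 5.43, 8.10 and 42.7 CPM in peritumour tissue. The highest library of each tissue was from F9, peritumour F11 was next at 34.8 CPM, and tumour was the lower member of 10 of 14 pairs in CPM and of 11 of 14 after TMM scaling. The 3 M pairs gave 4.57, 15.5 and 4.22 CPM in tumour against 5.43, 19.6 and 8.13 CPM in peritumour tissue, so that each M tumour was below its own peritumour library although the ranges overlapped. The log2 fold change was -0.44 ± 0.31 (SE, 95% interval -1.07 to 0.20), adjusted p = 0.452 (edgeR). With the pair as a block it was -0.34 ± 0.14 (SE, interval -0.63 to -0.04), with an unadjusted p of 0.0279 and an adjusted p of 0.126 (edgeR). It passed in a single setting, the block without F replicate 10, where the log2 fold change was -0.42 and the adjusted p 0.0408 (edgeR).

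Lgals9 measured 481, 697 and 1238 CPM (lowest, median, highest) in tumour and 460, 660 and 1063 CPM in peritumour tissue. Tumour was the higher member of 11 of 14 pairs in CPM but of 7 of 14 after TMM scaling, and the groups overlapped almost fully. The log2 fold change with the pair as a block was 0.02 ± 0.08 (SE), interval -0.14 to 0.19, adjusted p = 0.883 (edgeR).

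Cd276 measured 53.4, 73.1 and 105 CPM in tumour and 51.0, 68.1 and 88.7 CPM in peritumour tissue, with tumour higher in 9 of 14 pairs. Its log2 fold change with the block was 0.13 ± 0.11 (SE), interval -0.10 to 0.36, adjusted p = 0.456 (edgeR). Vsir measured 8.32, 15.7 and 36.1 CPM in tumour and 11.7, 17.03 and 26.1 CPM in peritumour tissue. The spread of Vsir was wider in tumour (coefficient of variation 43.3%) than in peritumour tissue (20.4%), a difference that was not tested, and the highest tumours were F2 (36.1 CPM) and F5 (31.1 CPM). Its log2 fold change was 0.02 ± 0.14 (SE) without the block and -0.01 ± 0.12 (SE) with it, adjusted p = 0.956 in both (edgeR). The sign is thus not fixed, and without F pairs 2, 5 and 6 it was -0.12. Pdcd1lg2, with 0, 0.186 and 0.6995 CPM in tumour and 0.0602, 0.199 and 0.416 CPM in peritumour tissue, had 56 counts in tumour and 49 in peritumour tissue.

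**Figure D2:**
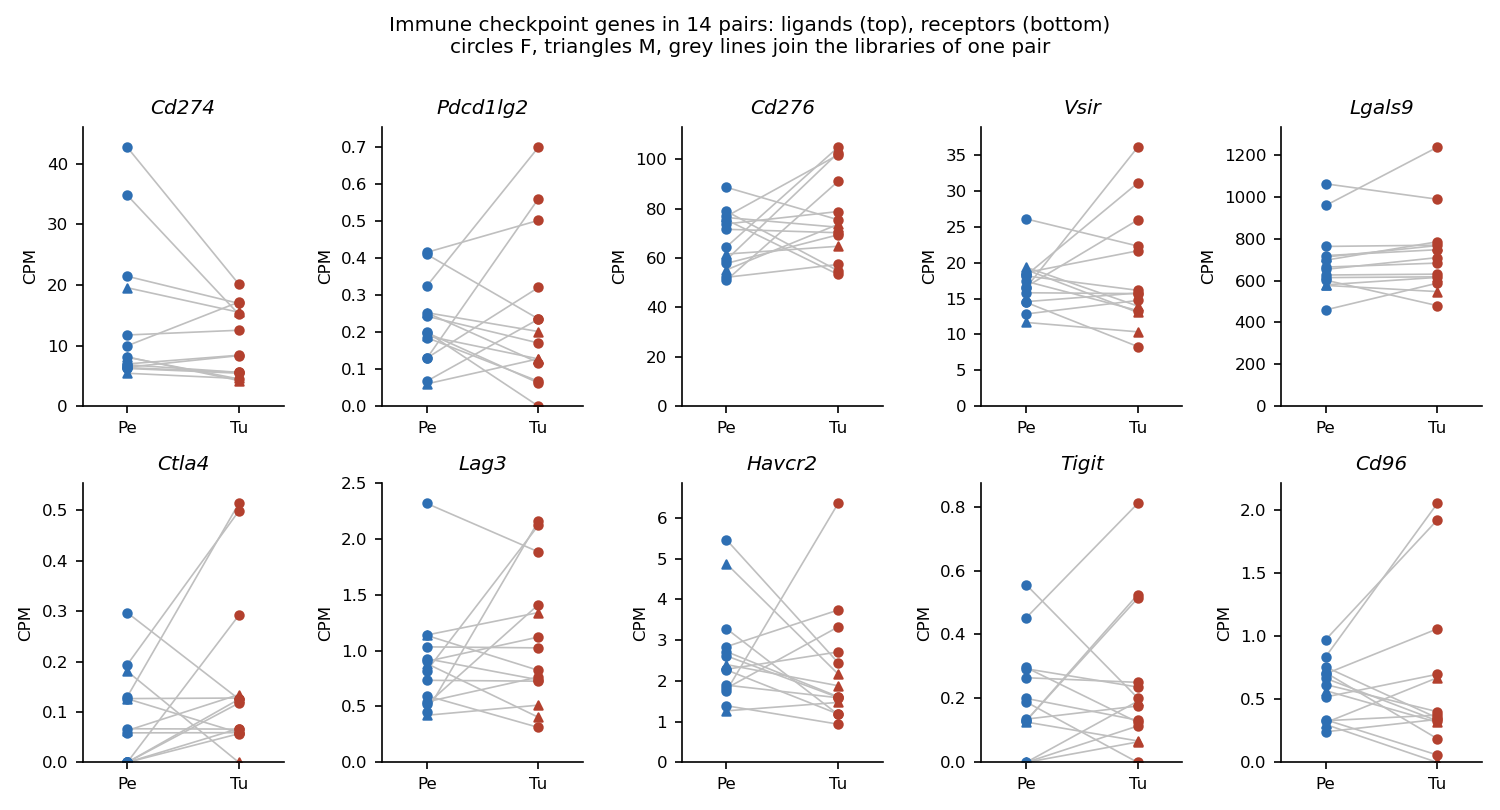
CPM of each member in the peritumour (Pe, blue) and tumour (Tu, red) library of the 14 pairs, each panel with its own axis from 0; circles are F, triangles M, and grey lines join the libraries of a pair. The tissues overlap in every panel, the 3 M pairs slope down for Cd274 and Vsir, and the values of Ctla4, Tigit and Pdcd1lg2 lie under 1 CPM.

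Among the receptors, Havcr2 was the most abundant. It measured 0.939, 1.75 and 6.35 CPM (lowest, median, highest) in tumour and 1.27, 2.34 and 5.46 CPM in peritumour tissue. Tumour was the lower member of 9 of 14 pairs, but the single highest library of all was tumour F2. The log2 fold change was -0.33 ± 0.24 (SE, interval -0.82 to 0.17), adjusted p = 0.475 (edgeR), and with the block -0.31 ± 0.22 (SE), adjusted p = 0.373 (edgeR). Without F pairs 2, 5 and 6 it was -0.57 ± 0.23 (SE) with an adjusted p of 0.139 (edgeR), and with the block as well -0.54 ± 0.19 (SE) with an adjusted p of 0.0611 (edgeR).

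Lag3, the receptor of FGL1 and of MHC class II, measured 0.313, 0.924 and 2.16 CPM in tumour and 0.421, 0.852 and 2.32 CPM in peritumour tissue. Tumour was the higher member of 7 of 14 pairs in CPM and of 9 of 14 after TMM scaling, and the widest gap was that of F5, with 2.16 CPM in tumour against 0.454 CPM in peritumour tissue. Its log2 fold change with the block was 0.20 ± 0.24 (SE), adjusted p = 0.617 (edgeR), and without F replicate 5 it was 0.06. Cd96 measured 0, 0.364 and 2.06 CPM in tumour and 0.243, 0.594 and 0.974 CPM in peritumour tissue. Tumours F3 (2.06 CPM, 33 counts) and F2 (1.92 CPM, 30 counts) were both above every peritumour library, while tumour M3 had no count. Its log2 fold change with the block was -0.23 ± 0.34 (SE), adjusted p = 0.688 (edgeR), so that these data do not fix its direction.

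Tigit measured 0, 0.184 and 0.810 CPM in tumour and 0, 0.162 and 0.556 CPM in peritumour tissue, with 55 and 44 counts in all. Tumours F3, F5 and F2, with 13, 9 and 8 counts, were the highest of their group. Ctla4 measured 0, 0.121 and 0.513 CPM in tumour and 0, 0.0649 and 0.297 CPM in peritumour tissue. Its 36 tumour counts against 20 peritumour counts came in good part from tumours F2 and F3, with 8 counts each. Tumour was the higher in 10 of 14 pairs by these few counts. In the fit with no filter, Ctla4 had a log2 fold change of 0.61 ± 0.51 (SE, interval -0.42 to 1.65), adjusted p = 0.549 (edgeR). In the same fit Tigit had 0.20 ± 0.44 (SE), adjusted p = 0.845, and Pdcd1lg2 had 0.11 ± 0.37 (SE), adjusted p = 0.902 (edgeR).

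The authors' deposited table lists 6 of the 10 members with a q-value under 0.05 for the same tissues. Of 17346 genes with a q-value in the authors' deposited table, 66.05% are under 0.05, in columns named for degseq. The values in the authors' deposited table include log2 fold changes of -0.44 for Cd274 (q = 3.53e-28), 0.07 for Lgals9 (q = 1.19e-41) and 0.19 for Cd276 (q = 4.23e-31). Their sizes are close to the log2 ratios of the mean CPM (-0.43, 0.07 and 0.18), but the tests across the 14 pairs given above passed none of them.

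Letters F and M were compared within each tissue, with 3 M animals that all have the first code style. No member passed in Tu_M against Tu_F or in Pe_M against Pe_F (edgeR), against 0.0283% of all genes in each. At an unadjusted p under 0.05 there were 2 members in tumour and 0 in peritumour tissue, and DESeq2 called 0 in both. The largest estimates were those of Cd96, at -1.64 ± 0.73 (SE) in tumour with an unadjusted p of 0.0319 and an adjusted p of 0.438, and -1.37 ± 0.73 (SE) in peritumour tissue (edgeR). The tumour value was -1.05 without M replicate 3, the pair whose tumour had no count, and -2.66 without M replicate 1. Vsir in tumour had -0.59 ± 0.27 (SE), with an unadjusted p of 0.0374 and an adjusted p of 0.46 (edgeR), and -0.37 without F pairs 2, 5 and 6. The 3 Tu_M values of Vsir were 13.97, 13.1 and 10.4 CPM, inside the range of Tu_F.

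Within the F pairs 0 of 7 members passed, against 0.312% of all genes without the block and 9.84% with it, and within the M pairs 0 of 7 against 0% (edgeR). The tissue effect itself was tested for a difference between M and F, and 0 of 7 members passed, against 0% of all genes (edgeR). In these 3 comparisons 0 members had an unadjusted p under 0.05 in edgeR, and DESeq2 called 0. Vsir was lower in tumour in 3 of 3 M pairs and in 5 of 11 F pairs. It had the interaction nearest the threshold, at -0.59 ± 0.33 (SE, log2), with an unadjusted p of 0.0842 and an adjusted p of 0.995 (edgeR without the block). Over 10 other fits, some with the pair as a block, this estimate ran from -0.639 to -0.406, with an adjusted p of 0.584 or more (edgeR or DESeq2).

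Few binding partners passed, and those that did were lower in tumour. Of 20 binding partners, 19 were tested, and with the pair as a block 3 were lower and 0 higher in tumour (edgeR). Over all 14117 genes that fit called 789 higher and 835 lower, together 11.5%. Without the block 0 passed in edgeR (3 at an unadjusted p under 0.05), and DESeq2 called 1, Fgl1, beside 622 of all 14117 genes. The list's median log2 fold change was -0.25 without the block and -0.23 with it. The 3 that fell were Fgl1 and Clec4g, ligands of LAG-3, and Ceacam1, a ligand of TIM-3. That they are ligands follows from how the list was made.

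Fgl1, a protein secreted by hepatocytes, measured 19.7, 107 and 177 CPM (lowest, median, highest) in tumour and 44.2, 206 and 466 CPM in peritumour tissue. It was lower in tumour in 13 of 14 pairs, although the groups overlapped. Its log2 fold change with the block was -0.95 ± 0.15 (SE), adjusted p = 0.00191 (edgeR), and without the block -0.99 ± 0.31 (SE), adjusted p = 0.0906 (edgeR). Clec4g, the lectin LSECtin of sinusoidal endothelium, measured 3.73, 18.8 and 35.9 CPM in tumour and 12.7, 28.5 and 69.2 CPM in peritumour tissue and was lower in 13 of 14 pairs. Its log2 fold change with the block was -0.83 ± 0.17 (SE), adjusted p = 0.00786 (edgeR). Ceacam1, an adhesion molecule of hepatocytes and immune cells, fell by 0.53 ± 0.13 (SE) on the log2 scale with the block, adjusted p = 0.0155 (edgeR), and was lower in 11 of 14 pairs.

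Some markers of the cells that carry these ligands were also lower with the block, and 0 of them passed without it (edgeR), beside 11.5% and 1.05% of all genes. Of 8 sinusoidal endothelial markers, which include Clec4g, 3 were lower and 0 higher with the block, and their sum ran from 106 to 292 CPM in tumour and from 176 to 393 CPM in peritumour tissue. Of 8 hepatocyte markers, 4 were lower and 0 higher with the block, and 2 of the 8 estimates were positive. The mean log2 CPM of the list after TMM scaling was lower in tumour in 14 of 14 pairs. The sum of their CPM, in contrast, was higher in tumour in pairs F5, F6 and M2. The part of either in the fall of Fgl1, Clec4g and Ceacam1 was not tested.

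The other binding partners did not pass. Pvr, which encodes CD155, the ligand of TIGIT and CD96, had medians of 26.3 CPM in tumour against 25.4 CPM in peritumour tissue and a log2 fold change of 0.10 ± 0.11 (SE). Nectin2, a further ligand of TIGIT, had medians of 39.8 and 38.4 CPM and a log2 fold change of 0.07 ± 0.13 (SE). For the ligands of CTLA-4 the log2 fold changes were -0.16 ± 0.23 (SE) for Cd80 and -0.42 ± 0.17 (SE) for Cd86, with an adjusted p of 0.115 for Cd86 (all with the block, edgeR). The activating receptors that compete for the same ligands had 0.05 ± 0.44 (SE) for Cd28 and -0.24 ± 0.35 (SE) for Cd226.

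Of 20 further inhibitory genes, 19 were tested, and 2 were lower and 0 higher in tumour with the block (edgeR). Over all 14117 genes that fit called 789 higher and 835 lower, together 11.5%. DESeq2 with the block called 5 lower: Cd72, Ido2, Lair1, Tdo2 and Vsig4. Without the block 0 passed in edgeR (2 at an unadjusted p under 0.05), and DESeq2 called 1, Vsig4. Over all 14117 genes DESeq2 called 2387 with the block and 622 without it, in either direction. Vsig4, a B7 family member of Kupffer cells, measured 4.70, 15.0 and 49.0 CPM in tumour and 11.4, 27.7 and 61.5 CPM in peritumour tissue. It was lower in 13 of 14 pairs, with a log2 fold change of -0.97 ± 0.18 (SE) with the block, adjusted p = 0.00397 (edgeR). Of 6 Kupffer cell markers, which include Vsig4, 5 were lower with the block and 0 passed without it (edgeR), beside 11.5% and 1.05% of all genes, and their sum was 98.8 to 628 CPM in tumour against 138 to 577 CPM in peritumour tissue; their part in the fall of Vsig4 was not tested. Tdo2, a tryptophan-degrading enzyme of hepatocytes, fell by 0.63 ± 0.17 (SE) on the log2 scale with the block, adjusted p = 0.0286 (edgeR). Of 18 costimulatory genes 13 were tested, and 0 passed with or without the block (edgeR, 1 at an unadjusted p under 0.05 in each), with a median log2 fold change of 0.09 with it. DESeq2 with the block called 1, Icosl, as higher in tumour. Without F pairs 2, 5 and 6 the median with the block was -0.10, over 11 genes tested, of which 1 was higher (edgeR). Of 10 transcription factors tied to T cell exhaustion, such as Tox and Nr4a1, 0 passed in either fit by edgeR or DESeq2 (0 at an unadjusted p under 0.05 without the block, 2 with it), with a median log2 fold change of -0.15 with the block. Cd8a, a marker of cytotoxic T cells, had -0.03 ± 0.19 (SE).

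Interferon gamma is an inducer of Cd274, and its response genes were examined next. Of 12 response genes 3 fell and 0 rose with the block, beside 11.5% of all genes in either direction, and 0 passed without it (edgeR, 1 at an unadjusted p under 0.05; DESeq2 called 0). Cxcl9, a chemokine that draws T cells, fell by 0.68 ± 0.17 (SE) on the log2 scale, adjusted p = 0.0192, and Nlrc5, an activator of MHC class I genes, fell by 0.37 ± 0.09 (SE), adjusted p = 0.0205 (edgeR). A further 7 genes act on Cd274: Ifng, its receptors, Jak1 and Jak2, and Cmtm6 and Cmtm4, which stabilise PD-L1. Of these 1 passed with the block, beside 11.5% of all genes in either direction: Jak1 fell by 0.26 ± 0.07 (SE), adjusted p = 0.025 (edgeR). Ifng itself had a log2 fold change of -0.90 ± 0.48 (SE), adjusted p = 0.228 (edgeR). The falls of Tdo2 and Jak1 lost their call when single pairs were left out, at adjusted p up to 0.057 and 0.0537 (edgeR).

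**Figure D3:**
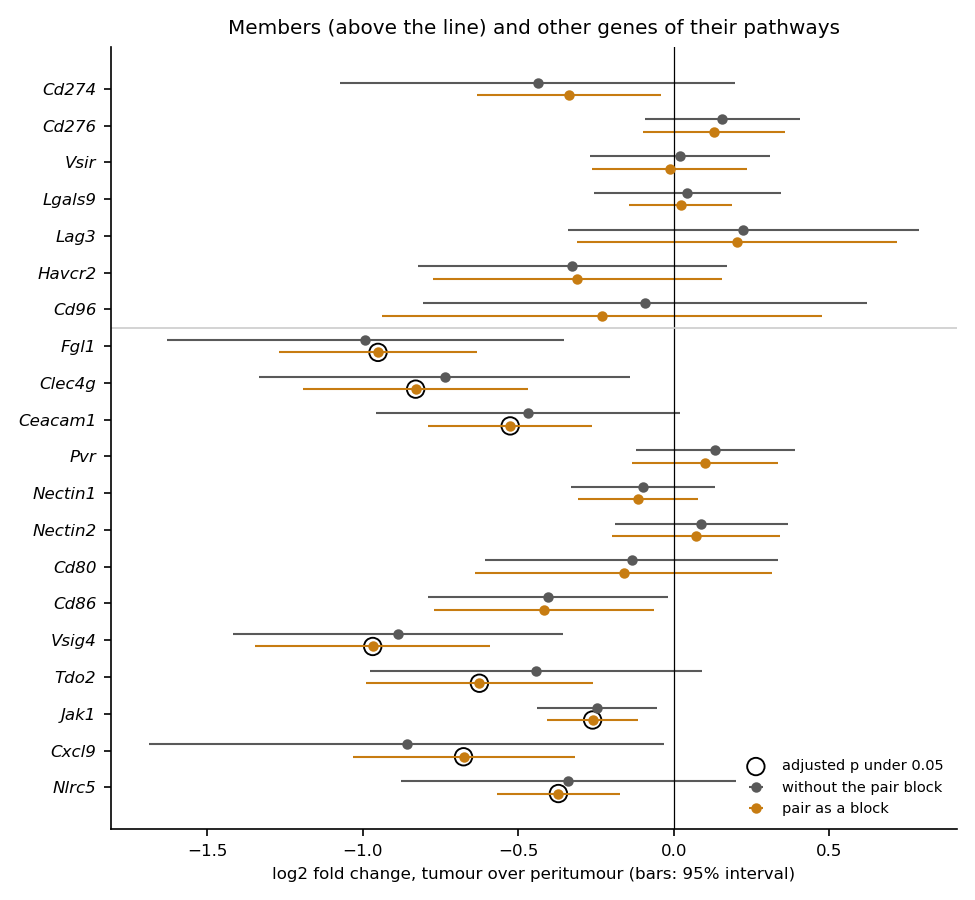
Log2 fold change of tumour over peritumour tissue with its 95% interval for the 7 members that were tested (above the line) and for other genes of their pathways, without the pair block (grey) and with it (orange); a ring marks an adjusted p under 0.05 in edgeR. No member has a ring, while Fgl1, Clec4g, Ceacam1, Vsig4, Tdo2, Jak1, Cxcl9 and Nlrc5 have one with the block.

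No member passed on average, but the tumour minus peritumour difference varied from pair to pair, and for 3 members it varied with a marker list. The difference of each tested member was set against that of 1 list, over 14 pairs and 7 such relations, with a two-sided permutation test and Benjamini-Hochberg adjustment over the 7. The list for each member was chosen with earlier results of these data known. The adjustment does not cover that choice, so these p-values are likely too small. For Cd274 it ran from -1.07 in F9 to 0.85 in F10 on the log2 scale. It rose with the mean difference of the 12 interferon gamma response genes, with Pearson's r = 0.805 (permutation p = 0.00059, adjusted 0.00206) and Spearman's rho = 0.807 (permutation p = 0.00078, adjusted 0.00276). Without the 2 pairs farthest from the median r was 0.804, and without F pairs 2, 5 and 6 it was 0.812, where the adjusted permutation p of rho was 0.0517. Within the first code style r was 0.969 (6 pairs, exact permutation p = 0.00556, adjusted 0.0389). Within the second it was 0.792 (8 pairs, exact permutation p = 0.017, adjusted 0.0398). The rank correlation did not pass in either, with rho of 0.943 and 0.690 (adjusted exact permutation p of 0.117 and 0.201). Over the 28 libraries, after the means of group and code style were taken out, Cd274 was most like the response genes (r = 0.893). NK and cytotoxic markers (0.817) and the genes that act on Cd274 (0.781) came next.

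The difference of Vsir followed that of 8 monocyte and macrophage markers, with r = 0.881 (permutation p = 6e-05, adjusted 0.00042) and rho = 0.807 (permutation p = 0.00079, adjusted 0.00276). Without the 2 farthest pairs r was 0.807. Within the first code style r was 0.960 (exact permutation p = 0.0306, adjusted 0.0713) and within the second 0.777 (exact permutation p = 0.0146, adjusted 0.0398). F2, F5 and F3 had both the largest rises of Vsir and rises of the macrophage markers, and without F pairs 2, 5 and 6 r was 0.840. The rank correlation did not pass without these pairs (adjusted permutation p = 0.0517), without the 2 farthest (0.0504) or within the first and second code style (exact, 0.408 and 0.201). With the means of group and code style taken out over the 28 libraries, Vsir was most like these markers (r = 0.897). Other lists came close: regulatory T cell (0.842), dendritic cell (0.823) and T cell markers (0.809) and costimulatory genes (0.818).

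The difference of Havcr2 followed the same markers, with r = 0.783 (permutation p = 0.0011, adjusted 0.00257) and rho = 0.688 (permutation p = 0.00869, adjusted 0.0203). This relation rests in part on single pairs: without the 2 farthest r was 0.614 (permutation p = 0.0331, adjusted 0.0773), and without F pairs 2, 5 and 6 it was 0.619 (adjusted 0.0811). Within the code styles r was 0.810 (first, exact permutation p = 0.0306, adjusted 0.0713) and 0.809 (second, exact permutation p = 0.017, adjusted 0.0398). Its rank correlation did not pass without F pairs 2, 5 and 6 (adjusted permutation p = 0.146) or without the 2 farthest (0.221). Nor did it pass within the first and second code style (adjusted exact permutation p of 0.423 and 0.201). In tumour F2, the highest library for both genes, the 8 markers summed to 1075 CPM, against a median of 342 CPM over the tumours. Over the 28 libraries, after the means of group and code style were taken out, Havcr2 was more like the exhaustion factors (r = 0.881), dendritic cell markers (0.808) and T cell markers (0.780) than these markers (0.732).

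The remaining relations did not pass by Pearson's r. Lag3 against T cell markers had r = 0.577 (permutation p = 0.0306, adjusted 0.0535) and rho = 0.455 (permutation p = 0.106, adjusted 0.148), and r was 0.158 without the 2 farthest pairs and 0.187 without F pairs 2, 5 and 6. Within the code styles it was 0.534 and 0.734. Cd96 against NK and cytotoxic markers had r = 0.519 (permutation p = 0.0544, adjusted 0.0761) and rho = 0.596 (permutation p = 0.0273, adjusted 0.0478), with r = 0.349 without the 2 farthest pairs, 0.585 without F pairs 2, 5 and 6, and 0.505 and 0.542 within the code styles. Cd276 against stellate cell and fibroblast markers had r = -0.177 and rho = -0.200 (permutation p = 0.543 and 0.494, adjusted 0.634 and 0.494). Without the 2 farthest pairs r was -0.385, and within the code styles it was 0.081 and -0.381. Lgals9 against Kupffer cell markers had r = -0.117 and rho = -0.323 (permutation p = 0.7 and 0.261, adjusted 0.7 and 0.304). Without the 2 farthest pairs r was -0.196, and within the code styles it was 0.050 and -0.434. Over the 28 libraries, with the same means taken out, Lag3 was less like T cell markers (r = 0.566) than some other lists. These included the genes that act on Cd274 (0.708), the interferon gamma response genes (0.696) and the exhaustion factors (0.676). Cd96 was less like NK and cytotoxic markers (0.401) than costimulatory genes (0.711), monocyte and macrophage markers (0.675) and T cell markers (0.582). Lgals9 was most like the hepatocyte markers (r = 0.742) and least like the neutrophil markers (-0.664).

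**Figure D4:**
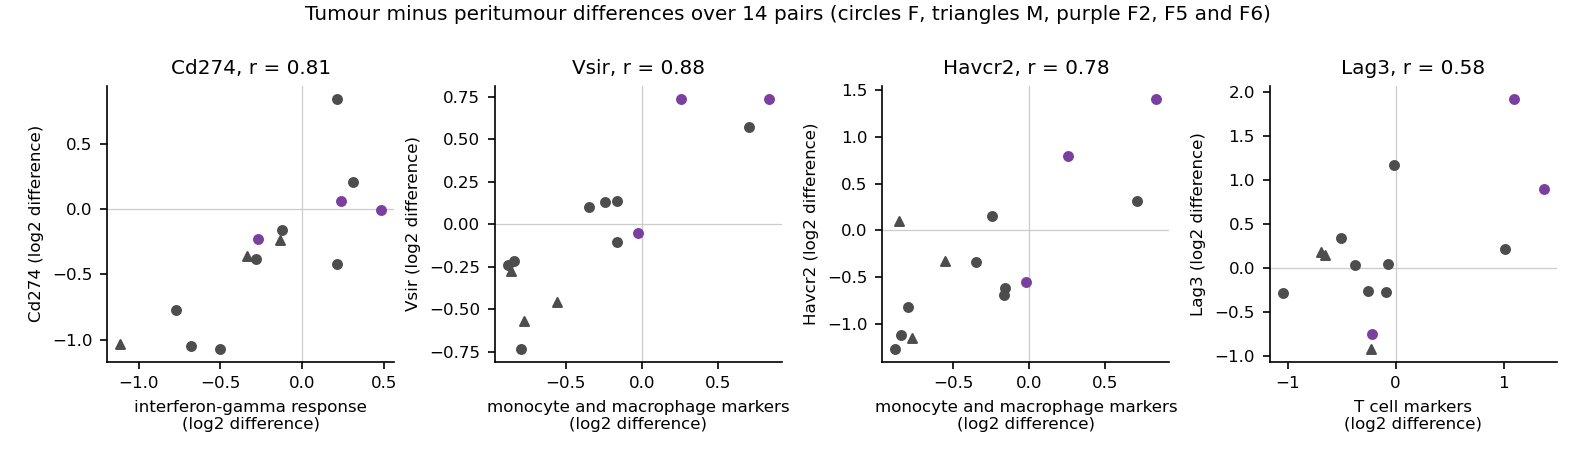
Tumour minus peritumour difference of a member (log2 CPM, vertical) against the mean difference of a marker list (log2 CPM, horizontal) in 14 pairs; circles are F, triangles M, and purple points are F2, F5 and F6. Cd274 rises with interferon gamma response genes (r = 0.805), Vsir and Havcr2 with monocyte and macrophage markers (0.881 and 0.783), and the Lag3 relation with T cell markers (0.577) did not pass.

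**Figure D5:**
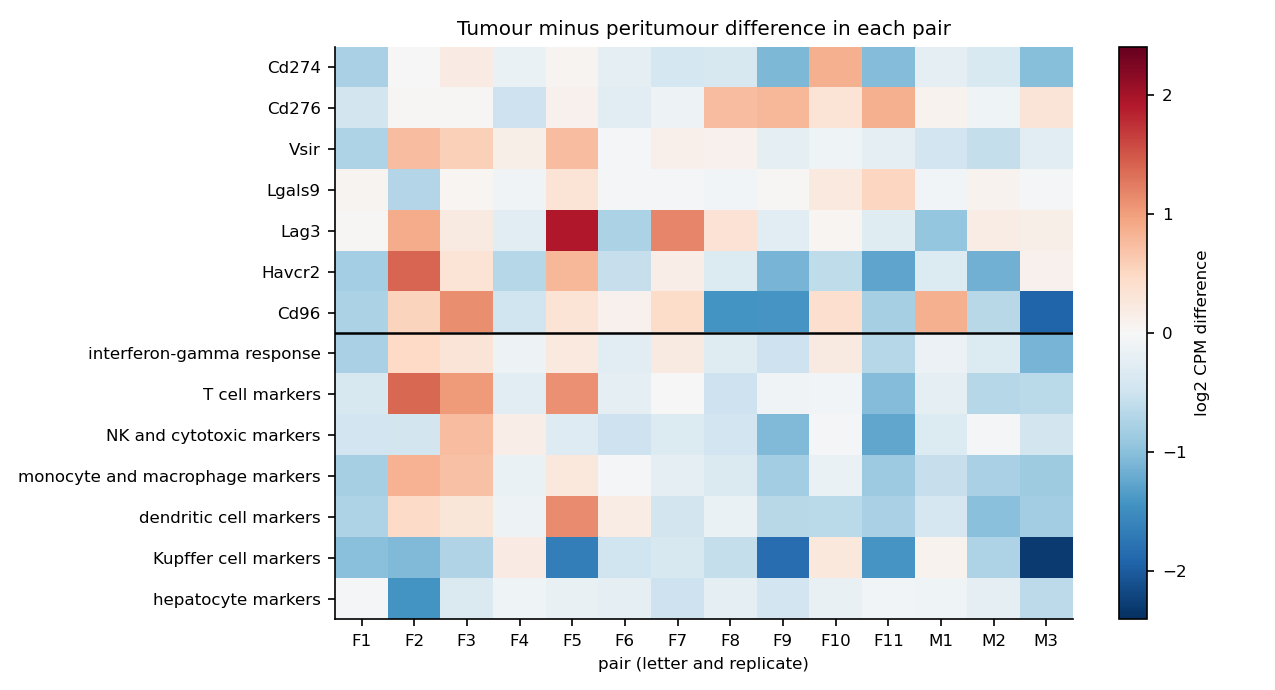
Tumour minus peritumour difference in log2 CPM for the 7 tested members (above the line) and the mean of 7 marker lists (below it) in each pair, red where tumour is higher. F2, F3 and F5 are red for Vsir, Havcr2, T cell and macrophage markers, F9 and F11 are blue for Cd274 and Havcr2, and the hepatocyte row is lower in tumour in all 14 pairs.

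The genes most like each member were found by Pearson's r of log2 CPM over the 28 libraries, after the mean of each group and code style was taken out. These values describe libraries that share animals and depth. For Cd274 they were Serpina3g (0.948), Gbp5 (0.937) and Cxcl10 (0.923), of which Gbp5 and Cxcl10 are known interferon-induced genes, and 157 genes were over 0.7. For Havcr2 they were Slamf7 (0.927), Rab7b (0.904) and Fgl2 (0.895), and for Vsir Myo1f (0.930), Fblim1 (0.924) and Arl11 (0.912). For Lag3 they were Mpeg1 (0.817), a gene of macrophages, Slamf7 (0.815) and Ccl8 (0.814), and for Cd96 Batf (0.855), Dennd1c (0.794) and Arhgap4 (0.776). Ccl8 had a median of only 0.358 CPM, and Lag3 and Cd96 were themselves near the detection limit. The abundant ligands had other neighbours. Those of Lgals9 were Ifi35 (0.919), Naprt (0.913) and Retreg2 (0.910), with 644 genes over 0.7, and those of Cd276 were Slc38a10 (0.764), Csk (0.740) and Wrap73 (0.729), with 7 genes over 0.7.

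Among the members themselves, Lag3 and Havcr2 varied together most (r = 0.812), followed by Havcr2 with Vsir (0.806) and Cd274 with Lag3 (0.702). Cd276 was near 0 against Havcr2 (0.015), Vsir (0.006) and Lag3 (0.040), and its highest value was with Lgals9 (0.487). Vsir and Lgals9 had r = -0.279.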

How the data were processed

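The authors deposited estimated counts (expected counts, with decimals) and TPM per gene and library, per the file headers. Per the submitters' processing notes, RSEM 1.2.12, Bowtie2 2.2.5, HISAT2 2.0.4 and DESeq2 1.4.5 were used, with no role stated. The authors' deposited table also holds a log2 fold change and a q-value per comparison. Per-sample FPKM columns (28) and 9 columns of a further group were not used. Left out was 1 line without a gene ID, and 8.06% of the counts were not whole.

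Counts were rounded. edgeR 4.0.16 in R 4.3.3 gave TMM factors (0.809 to 1.36), filterByExpr by group (14117 genes), robust quasi-likelihood tests and p-values adjusted by Benjamini-Hochberg across the 14117, at a threshold of 0.05. The SE is the absolute log2 fold change over the square root of F. Tumour was compared with peritumour tissue with code style and letter as covariates, and the 4 groups from 1 fit with code style. Alternatives were DESeq2 1.42.0, other scaling, no filter, the pair as a block, each pair left out, F pairs 2, 5 and 6 left out, and each code style alone. The code was tested on simulated data.

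The numbers pair the libraries: deviations from the means of group and code style correlated within every pair (0.135 to 0.61, against a median of -0.0171 between unpaired libraries), and for 10 of 14 tumours the best match was their own partner. The biological coefficient of variation was 0.381 without the block and 0.27 with it. The pairing comes from the code in the titles; where nothing says that libraries came from separate animals, p-values measure only the spread between these samples.

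List scores are means of log2 CPM (prior count 2) of the tested genes, and relations between differences used 100000 permutations, or all of them under 10 pairs. Named genes were all members, genes of the partner, inhibitory, costimulatory, interferon gamma and exhaustion lists that passed in either fit, 13 genes of these fixed by name, and the 3 most similar genes of each tested member. The values of 1 gene that this rule names are not reported here. Near the detection limit means a median under 1 CPM or failing the filter. Intervals of 95% on fold changes come from the fit. Members, lists and left-out pairs were chosen with earlier results of these data known. The 2 libraries closest to each other within a group still had an index of dispersion of 18.3, so none were merged.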

Additional observations from a re-analysis of the deposited data

How the results depend on the processing

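Of 153 alternative fits over the 6 comparisons, 152 called 0 members and 1 called 1 (Cd274, with the block and without F replicate 10), so that the count ran from 0 to 1 when pairs were left out. The pair as a block changed no other call of a member. The genes called between tumour and peritumour tissue numbered 148 without the block (0 to 246 with a pair left out), 1624 with it (899 to 1957), 622 with DESeq2 and 2387 with DESeq2 and the block. They numbered 64 with no filter (1356 with the block), 455 without F pairs 2, 5 and 6 (2057 with the block), 0 in either code style alone, and 0 and 981 with the block in the first and second. With library size alone the block called 1153 higher and 681 lower, against 789 and 835 with TMM. Log2 fold changes that turned sign were small, and none passed: Cd96 (0.041 with no covariates, 0.217 in the first code style), Cd276 (-0.002 and -0.011 in the first style without and with the block), Lgals9 (-0.067 and -0.092, likewise) and Vsir. Vsir had -0.013 with the block, -0.012 with the block and DESeq2, -0.006 with the block and no filter, -0.121 without F pairs 2, 5 and 6 (-0.142 with the block) and -0.032 in the first style (-0.112 with the block). With each pair left out, without and with the block, the ranges were -0.51 to -0.33 and -0.42 to -0.28 for Cd274, -0.23 to 0.02 and -0.38 to -0.11 for Cd96, -0.041 to 0.067 and -0.068 to 0.041 for Vsir, and -0.014 to 0.096 and -0.016 to 0.082 for Lgals9. With the block, Vsir had -0.067, -0.059, -0.025, -0.068, -0.010, -0.025 and -0.018 without F replicates 2, 3, 4, 5, 6, 7 and 8. Of the relations between pair differences, that of Havcr2 did not pass at r = 0.619 without F pairs 2, 5 and 6, 0.614 without the 2 farthest pairs and 0.810 in the first style. That of Vsir did not pass at 0.960 in the first style. Spearman's rho of Cd274, Vsir and Havcr2 lost its call in more settings than r did, with the values given in the report. Over the F pairs alone Lag3 (0.630) and Cd96 (0.660) passed, and in the first style Cd276 (0.081) and Lgals9 (0.050) turned sign. The cause of these changes was not tested. The number of members near the detection limit was 4 at 0.5 CPM and 5 at 2 CPM. Depth limits Ctla4, Tigit and Pdcd1lg2 most.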
